A study of Homo sapiens with 8 samples.

Results

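The large subunit of the human cytosolic ribosome (60S) is described here through the footprints on the mRNAs of 44 of its protein genes. The genes were taken by symbol from a list of 60S protein names. Each deposited transcript was matched to its gene in GENCODE release 44, and the transcript with the highest value in a library stood for the gene there. Of the 44 genes 42 had a value in at least 1 library, out of 12235 genes in all. Ribosome profiling, which sequences the mRNA fragments that ribosomes shield from nuclease, had been done on HEK293T cells, a line derived from human embryonic kidney and immortalized with large T antigen of SV40. After a night of growth in normal medium, cells were moved to sufficient medium (Suff), or to the same medium without arginine (Arg-), leucine (Leu-) or methionine (Met-). All 4 media were made from a custom DMEM with dialyzed serum, to which cysteine, histidine and the amino acids not under test were added back. Cells were lysed without cycloheximide (CHX, which halts elongating ribosomes) or after pretreatment with it, giving 2 series of 4 libraries with 1 library per condition. Nothing below therefore has a replicate error or a test, and differences are described by their size. The cell line label was not checked by markers, since the reads were aligned to human transcripts only and the large T antigen is not among them.

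Ribosomal proteins are needed in roughly equal numbers and assembled with rRNA in the nucleolus, which makes their mRNAs among the most heavily translated of a growing cell. These mRNAs are textbook members of the TOP class. They begin with a C followed by a run of pyrimidines, the terminal oligopyrimidine tract, and their translation is known to depend on mTORC1, the kinase complex that senses amino acids, and on the cap-binding protein LARP1. The question put to the data was how footprints on these mRNAs stood when 1 amino acid was missing.

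The first transcribed bases are shown because they define the TOP class. For 37 of the 44 genes a RefSeq start-site window was at hand (GRCh38.p14; RPL5, RPL7, RPL8, RPL23, RPL23A, RPL30 and RPL37 had none printed or searched). Each line below runs 5′ to 3′ from 10 bases before to 20 bases after the start, and capitals mark the unbroken run of pyrimidines from the first transcribed base. The first 5 belong to members whose ratios stand at an end of a comparison below or that belong to the 5S particle, and the last 3 belong to members whose Leu- ratios were among the highest in a series.
RPLP1, chr15:69452808-69452837, plus strand: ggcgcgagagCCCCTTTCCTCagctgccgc
RPL37A, chr2:216498834-216498863, plus strand: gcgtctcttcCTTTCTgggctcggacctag
RPL39, chrX:119791611-119791640, minus strand: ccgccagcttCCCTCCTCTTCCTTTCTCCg
RPL41, chr12:56116623-56116652, plus strand: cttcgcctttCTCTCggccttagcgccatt
RPL11, chr1:23691796-23691825, plus strand: gctccgctttCTCTTCCTgctctccatcat
RPL3, chr22:39319604-39319633, minus strand: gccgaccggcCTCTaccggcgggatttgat
RPL10A, chr6:35468391-35468420, plus strand: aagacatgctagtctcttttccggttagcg
RPL4, chr15:66504836-66504865, minus strand: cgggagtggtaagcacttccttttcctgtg
A C at the first base with at least 4 further pyrimidines, read on the transcribed strand only, was present at an annotated start of 27 of the 37 genes (73.0%). It was present in 1377 of 27268 other genes (5.05%). Counted by window, it was present in 27 of 49 member windows (55.1%) and in 4.07% of all windows of this length. RPL11 also has an annotated start without it, which is not printed. Among genes of 40S proteins it was present in 19 of 25, and among genes for the large subunit of the mitochondrial ribosome in 3 of 42. RPL3, with 4 pyrimidines and then an A, lay just outside this rule. The windows of RPL10A and RPL4 hold a run of pyrimidines some bases after the annotated start. RPL27 and RPL9, without the start sought, had Leu- log2 ratios to Suff of -1.11 and -0.79 without CHX. RPL22, with it, stood at -0.51. Medians of the members with and without this start are given below. The match describes letters at annotated starts, and the starts used in these cells were not measured.

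The deposited values are reads per kilobase of coding sequence and per total reads of the library, scaled by a fixed factor (RPKM), so they are shares of each library's own reads, and a change common to all mRNAs leaves no trace in them. Fewer ribosomes on an mRNA and fewer copies of that mRNA cannot be told apart here, nor can fewer cells and less RNA per cell. Library totals, inferred from the steps of the RPKM values, were 1302523 to 3139745 reads without CHX and 538222 (Met-) to 6434043 (Leu-) with CHX. Whether these totals count reads outside coding sequences is not known. The lowest number of reads listed for a transcript was 5 without CHX and 64 with CHX. Without CHX, 41 of the 44 members were listed in each of the 4 libraries. With CHX, 41 were listed in Suff and Leu-, 40 in Arg- and 31 in Met-, the shallowest library. RPL17 and RPL35A were listed in none of the 8 libraries, RPL10 only without CHX and RPL41 only with CHX.

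In sufficient medium without CHX the members were among the densest mRNAs. Their median was 3578 RPKM, 204-fold the median of all mRNAs, and 31 of the 41 stood among the top 100 of the library. Levels ran from 1347 RPKM for RPL26 to 8284 RPKM for RPL37A, a 6.15-fold spread. With CHX the spread was wider, from 132 RPKM for RPL18 to 30096 RPKM for RPL41 and 28295 RPKM for RPL37A. The 2 series also differed in processing. The read minimum was 5 without CHX and 64 with CHX, and file names without CHX point to removal of duplicate reads. Coding lengths behind the RPKM held the stop codon without CHX only. These differences cannot be told apart from CHX here. Of the 40 members listed in both Suff libraries, 27 had the lower RPKM with CHX, with ratios from 0.0391 for RPL18 to 4.80 for RPL28. For RPL18 and RPL28 the 2 series hold values for different transcripts of the gene, so these ratios join different coding sequences.

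Member mRNAs took a smaller share of footprints in every starved library than in Suff of the same series. Of the inferred library totals without CHX, 7.90% of reads fell on them in Suff, 6.92% in Arg-, 5.14% in Met- and 4.51% in Leu-. With CHX the shares were 7.34% in Suff, 4.73% in Arg-, 3.71% in Met- and 3.43% in Leu-. The 95% exact (Clopper-Pearson) intervals of these shares are narrow, 3.66% to 3.76% in the shallowest library, and cover counting error only. In the share of summed RPKM, the Met- library with CHX stood above its Suff library, at 16.0% against 11.8%. RPL41 alone made up 9.45% of the summed RPKM there, and without it the shares were 6.52% in Met- and 9.97% in Suff.

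In Leu- without CHX every listed member was lower than in Suff. Footprint density was below Suff for 41 of 41 members, against 39.0% of all mRNAs compared, and at least 1.5-fold below it for 31 members, against 7.79% of all mRNAs. None was 1.5-fold higher, against 21.6% of all mRNAs. The median log2 ratio was -0.88, while that of all mRNAs was 0.14. Single members ranged from -1.30 for RPL37A to -0.34 for RPL10A, and all 41 counting intervals lay below a ratio of 1. Such intervals are narrow at these read numbers and clear 1 at small differences, and no share over all mRNAs was computed for them. RPL37A, RPL26 (-1.29) and RPL31 (-1.28) stood lowest. RPL10A, RPL30 (-0.36) and RPL3 (-0.39) stood highest.

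Met- without CHX gave a lower median too, with a wider spread among members. The median log2 ratio was -0.68 against 0.32 for all mRNAs. Of 41 members, 38 were below Suff (34.4% of all mRNAs), 23 at least 1.5-fold (12.9% of all mRNAs), and none was 1.5-fold higher (36.9% of all mRNAs). RPLP1 (-1.42), RPL14 (-1.39) and RPL24 (-1.36) stood lowest. RPL39 (0.24), RPL22 (0.13) and RPL13 (0.11) were the 3 members above Suff.

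In Arg- without CHX the members lay close to the other mRNAs. Their median log2 ratio was -0.21 against -0.02 for all mRNAs. Of 41 members 32 were below Suff (51.4% of all mRNAs), and 9 of 41 were at least 1.5-fold lower, against 18.5% of all mRNAs. None was 1.5-fold higher, against 19.6% of all mRNAs. Counting intervals lay below a ratio of 1 for 29 members, above it for 8 and across it for 4, again without a share over all mRNAs to set beside them. RPLP1 (-1.19), RPL38 (-0.98) and RPL23A (-0.85) stood lowest, and RPL28 (0.51), RPL32 (0.48) and RPL13 (0.44) highest.

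**Figure D1:**
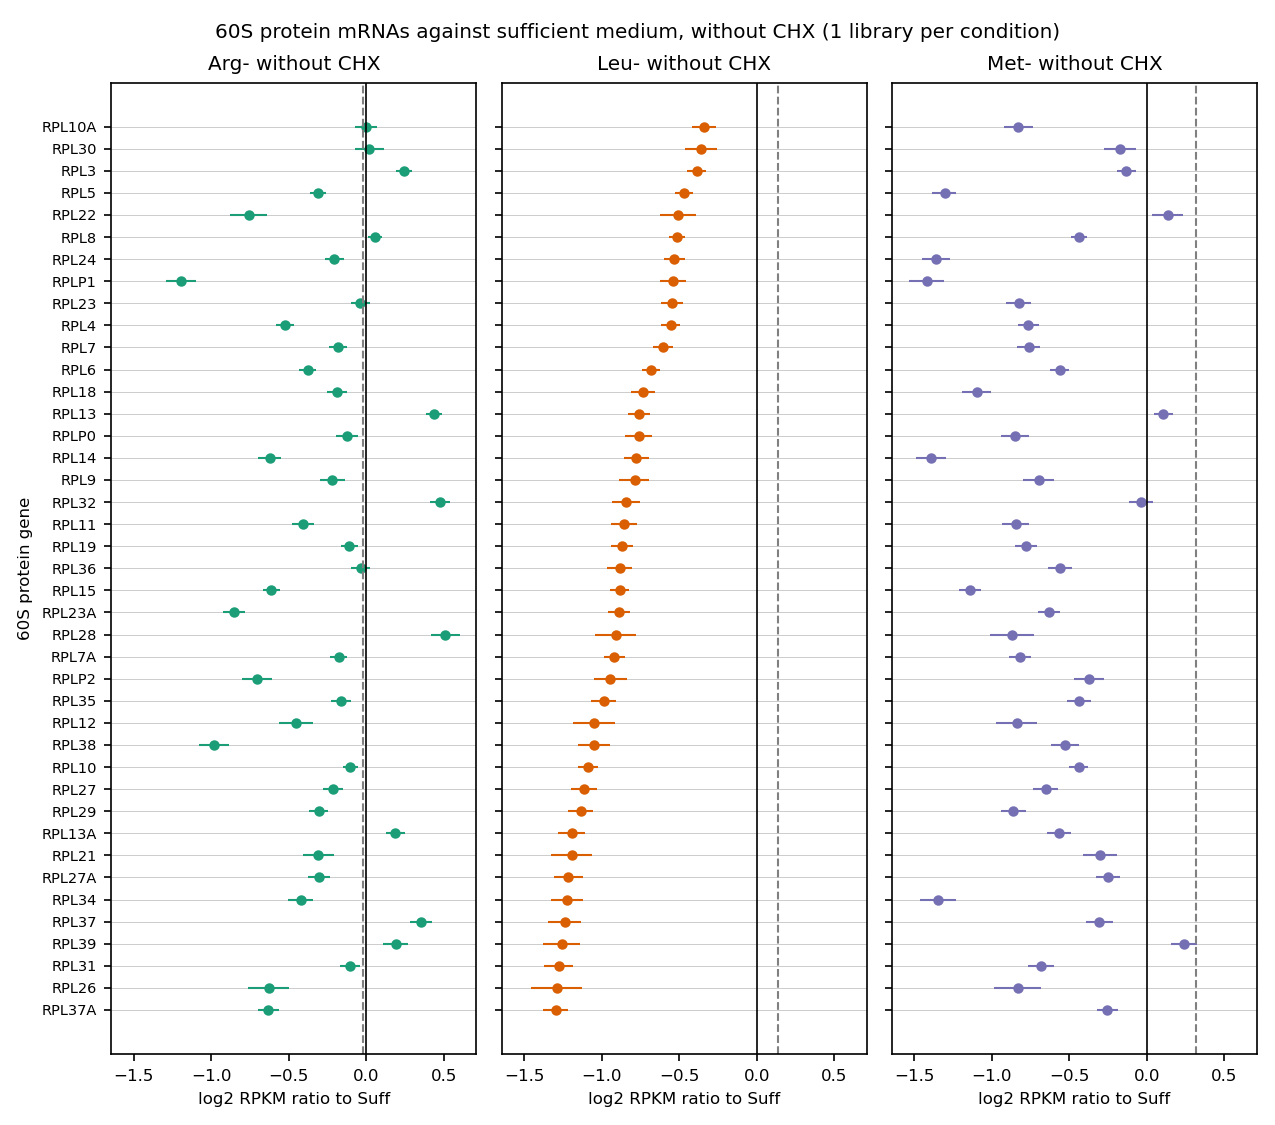
Log2 ratio of RPKM in each starved library to Suff (horizontal axis) for the 41 listed 60S protein genes (vertical axis, ordered by the Leu- ratio), without CHX, 1 library per condition. Points are ratios, bars 95% counting intervals, the solid line a ratio of 1 and the dashed line the median of all mRNAs. In Leu- all 41 points lie left of the solid line, and in Arg- 9 lie right of it.

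With CHX the members were again lower in Leu- than in Arg-, and the spread among them was larger. In Leu- the median log2 ratio was -1.13 against 0.02 for all mRNAs, 39 of 41 members were below Suff (49.0% of all mRNAs), and 33 were at least 1.5-fold lower (20.0% of all mRNAs). None was 1.5-fold higher (24.3% of all mRNAs). RPL30 (-2.36), RPL37A (-2.21) and RPL21 (-2.20) stood lowest, while RPL4 (0.43) and RPL15 (0.42) were the 2 members above Suff. In Arg- the median was -0.60 against -0.23, 34 of 40 members were below Suff (59.0% of all mRNAs), and 21 of 40 members were at least 1.5-fold lower (35.7% of all mRNAs). The extremes of Arg- were RPL30 (-1.94), RPLP1 (-1.83) and RPL13 (-1.48) at the low end and RPL5 (1.09), RPL3 (0.50) and RPL4 (0.37) at the high end. RPL5 was the only member at least 1.5-fold higher (25.2% of all mRNAs).

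Met- with CHX had the widest range of all 6 comparisons with Suff. The median log2 ratio over 31 members was -1.11 against 0.89 for all mRNAs. Of these 31 members, 27 were below Suff (25.2% of all mRNAs), and 22 were at least 1.5-fold lower (15.4% of all mRNAs). The 1890 mRNAs compared are those listed in this shallow library, so mRNAs low in Met- tend to be left out. The ratios of all mRNAs therefore lean upward here, and the members counted are the listed ones only. RPL37A (-2.60), RPL31 (-2.37) and RPL27 (-2.27) stood lowest among members with at least 100 reads in both libraries, and RPL32 stood at -3.79 on 95 reads. RPL41 (1.64) was the only member at least 1.5-fold higher (59.7% of all mRNAs), followed by RPLP0 (0.44) and RPL35 (0.40). Another 10 members listed in Suff were not listed in this library: RPL7, RPL12, RPL14, RPL15, RPL18, RPL21, RPL26, RPL30, RPL34 and RPL39. Had they held fewer than 64 reads, the least listed here, 8 of these would stand at most at 0.0655 (RPL14) to 0.279 (RPL26) of their Suff level. For RPL18 and RPL30 that limit is above the Suff level, so the missing values carry no direction. With all 10 counted as 0 the median would be -1.78.

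**Figure D2:**
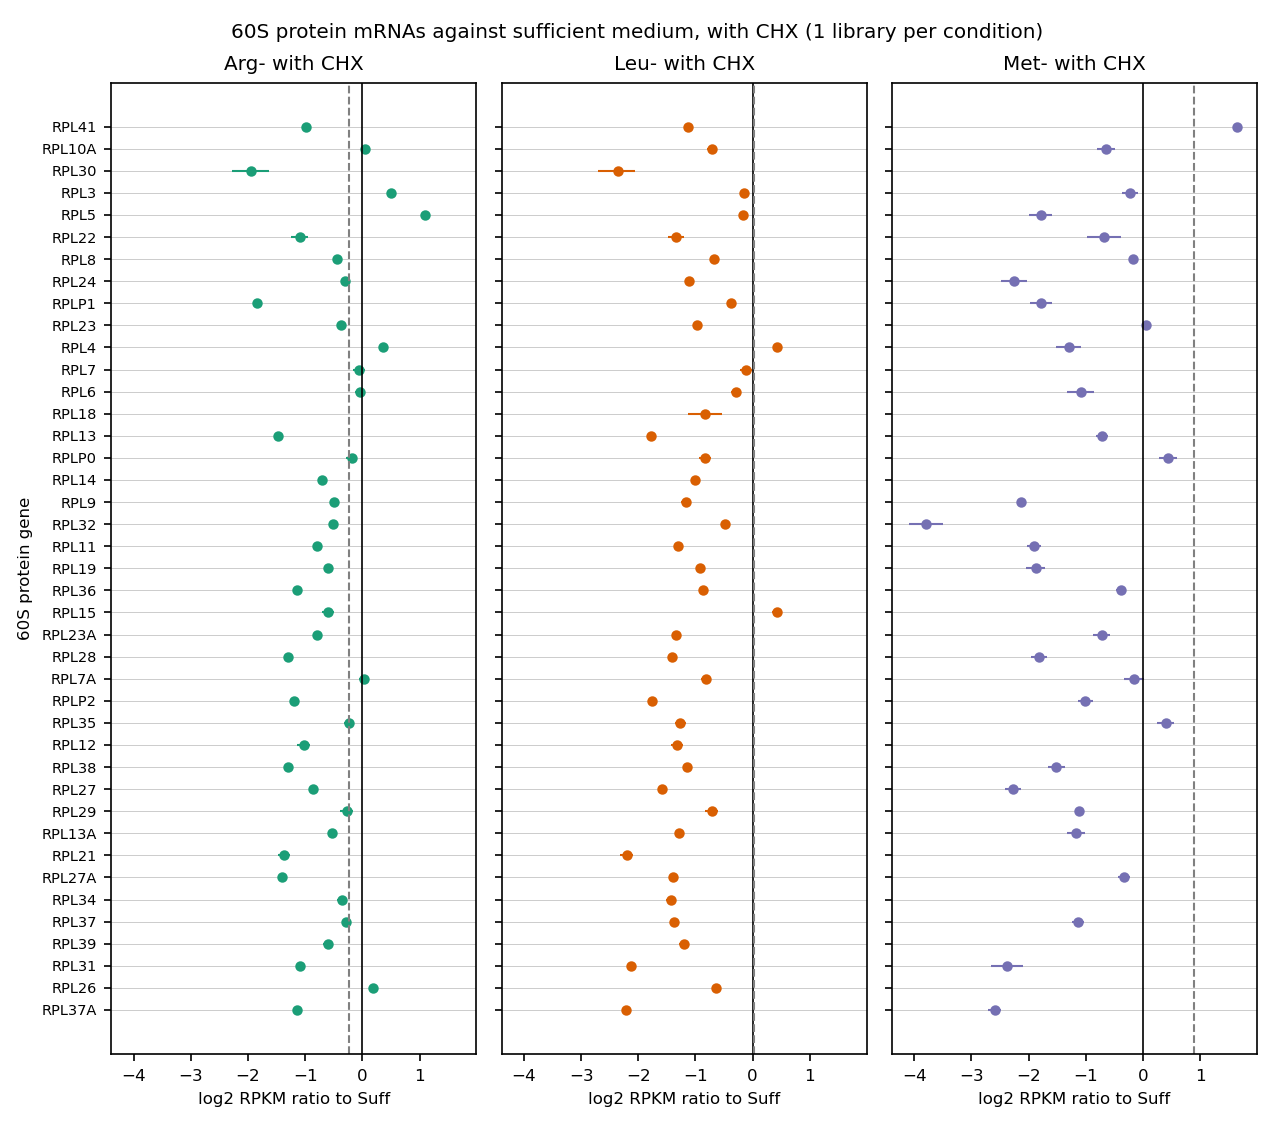
Log2 ratio of RPKM in each starved library to Suff (horizontal axis) for 60S protein genes listed with CHX (vertical axis, in the order of the plot without CHX, RPL41 on top), 1 library per condition. Points are ratios, bars 95% counting intervals, the solid line a ratio of 1 and the dashed line the median of all mRNAs. The Met- points run from -3.79 to 1.64 and all but RPL41 lie left of the dashed line at 0.89. That line covers only mRNAs listed in the shallow Met- library.

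Setting the series side by side, 38 of 40 members were below Suff in Leu- with and without CHX (33.4% of all mRNAs compared in both series), and 26 were at least 1.5-fold lower in both (6.08%). For Met- 25 of 30 members were below Suff in both series (20.9% of all mRNAs) and 13 at least 1.5-fold (7.29%). For Arg- 25 of 39 were below Suff in both (45.2% of all mRNAs) and 8 at least 1.5-fold (14.6%), namely RPL14, RPL15, RPL22, RPL23A, RPL37A, RPL38, RPLP1 and RPLP2. The 2 series have separate Suff libraries and shared no sample, and they differed in read minimum and, by file names, in removal of duplicate reads. In Arg- 8 of 39 members were below Suff with CHX and above it without (13.0% of all mRNAs), and 5 the other way (15.9%). In Leu- there were none (14.4%) and 2 (14.4%) of 40 members, and in Met- 2 (4.28%) and 3 (25.2%) of 30. With both counting intervals clear of a ratio of 1, opposite sides were found for 8.44% of all mRNAs in Arg-, 5.19% in Leu- and 11.9% in Met-. These last shares are not matched to the members for read number, which sets the width of the intervals. The Met- shares cover only mRNAs listed in the shallow Met- library with CHX, which tends to leave out mRNAs low there.

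The GTPase stalk recruits the translation factors. RPLP1 and RPLP2 form its flexible arms, which RPLP0 holds, and RPL12 lies at its base. RPLP1 without CHX had an RPKM of 4269.7 in Suff, 1866 in Arg-, 2943 in Leu- and 1593 in Met-. With CHX its RPKM was 4267 in Suff, 1195 in Arg-, 3271 in Leu- and 1244 in Met-. In both series RPLP1 was thus lower in Arg- and Met- than in Leu-, whereas 39 of 41 members without CHX were lower in Leu- than in Arg-, and its Leu- to Arg- log2 ratio of 0.66 without CHX and 1.45 with CHX was the highest of any member in either series. RPLP2 had an RPKM of 3312 in Suff, 2030.2 in Arg-, 1722 in Leu- and 2561 in Met- without CHX, and with CHX of 6063 in Suff, 2654 in Arg-, 1793 in Leu- and 3016 in Met-. Leu- was the lowest library for RPLP2 in both series. RPLP0 held an RPKM of 1744 in Suff, 1600.3 in Arg-, 1029 in Leu- and 967 in Met- without CHX, and 599 in Suff, 526 in Arg-, 336 in Leu- and 811 in Met- with CHX. It was highest in Suff without CHX and highest in Met- with CHX. The RPKM of RPL12 was 1569 in Suff, 1144 in Arg-, 759 in Leu- and 877 in Met- without CHX, and 1117 in Suff, 547 in Arg- and 447 in Leu-, with no value in Met- with CHX. RPL12 was highest in Suff and lowest in Leu- of the libraries that list it.

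RPL5 and RPL11 bind 5S rRNA and, when free of the ribosome, hold back the p53 ligase MDM2. Footprints on RPL5 without CHX came to an RPKM of 3383 in Suff, 2724 in Arg-, 2446 in Leu- and 1368 in Met-, and with CHX of 1522 in Suff, 3248 in Arg-, 1349.6 in Leu- and 440.0 in Met-. The RPL5 density was lowest in Met- in both series, whereas Arg- was below Suff without CHX and 2.13-fold above it with CHX (95% counting interval 2.06 to 2.21). RPL11 had an RPKM of 3261 in Suff, 2457 in Arg-, 1801 in Leu- and 1811 in Met- without CHX, and 8212 in Suff, 4739 in Arg-, 3319 in Leu- and 2195 in Met- with CHX. Its highest value was in Suff in both series, and its lowest in Leu- without CHX and in Met- with CHX.

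**Figure D3:**
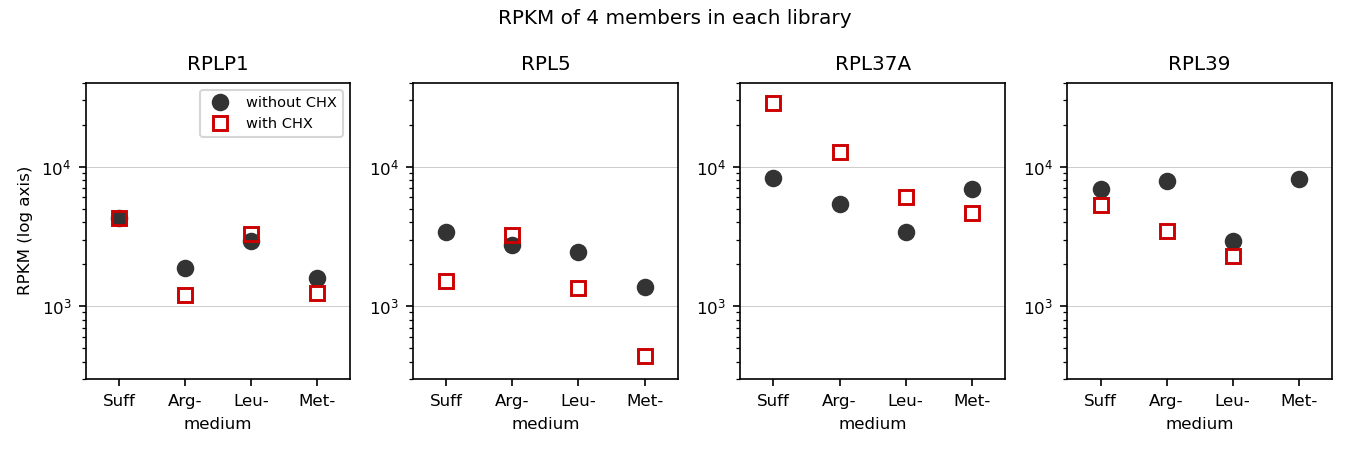
RPKM on a log axis (vertical) of RPLP1, RPL5, RPL37A and RPL39 in each medium (horizontal), with filled circles for the series without CHX and open squares for the series with CHX, 1 library per point and no error bar. RPLP1 is lower in Arg- than in Leu- in both series, and RPL5 is lowest in Met-.

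Around the peptidyl transferase centre, where peptide bonds form, lie RPL3, RPL8 and RPL10. RPL3 held an RPKM of 2065 in Suff, 2443 in Arg-, 1579 in Leu- and 1884 in Met- without CHX, and 942 in Suff, 1334 in Arg-, 844 in Leu- and 805 in Met- with CHX. RPL8 held an RPKM of 5086 in Suff, 5288 in Arg-, 3568 in Leu- and 3756 in Met- without CHX, and 6038 in Suff, 4420.3 in Arg-, 3793 in Leu- and 5316 in Met- with CHX. RPL10, without CHX only, held an RPKM of 5016 in Suff, 4672 in Arg-, 2364 in Leu- and 3693 in Met-. RPL3 and RPL8 were highest in Arg- without CHX, RPL3 also with CHX, and the Leu- library was lowest for all of them without CHX. RPL10A, the protein of the mobile L1 stalk near the exit site for tRNA, had an RPKM of 2395 in Suff, 2390.3 in Arg-, 1895 in Leu- and 1348 in Met- without CHX, and 1535 in Suff, 1592 in Arg-, 932 in Leu- and 982 in Met- with CHX. Its Arg- and Suff values differed by less than counting error in both series, with intervals of the log2 ratio from -0.07 to 0.07 and from -0.02 to 0.12.

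The tunnel through which the new chain leaves is lined by RPL4, RPL17 and RPL39, and its rim is formed by RPL19, RPL22, RPL23A, RPL26, RPL31 and RPL35. For RPL4 the RPKM values without CHX were 2235 in Suff, 1554 in Arg-, 1522 in Leu- and 1314 in Met-, and those with CHX 707 in Suff, 913 in Arg-, 955 in Leu- and 287 in Met-. For RPL39 they were 6958 in Suff, 7939.7 in Arg-, 2912 in Leu- and 8204 in Met- without CHX, and 5259 in Suff, 3471 in Arg- and 2291 in Leu-, with no value in Met- with CHX. RPL39 without CHX was the member with the largest difference between Met- and Leu-, 2.82-fold higher in Met-, while RPL4 was highest in Leu- of the libraries with CHX. RPL19 had an RPKM of 4352 in Suff, 4031 in Arg-, 2382 in Leu- and 2534 in Met- without CHX, and 4025 in Suff, 2651 in Arg-, 2114 in Leu- and 1095 in Met- with CHX. RPL22 had an RPKM of 2028 in Suff, 1200.0 in Arg-, 1426 in Leu- and 2224 in Met- without CHX, and 834 in Suff, 389.8 in Arg-, 328 in Leu- and 523 in Met- with CHX. RPL22 was the only member whose lowest library without CHX was Arg-. RPL23A had an RPKM of 4172 in Suff, 2308 in Arg-, 2253 in Leu- and 2694 in Met- without CHX, and 2818 in Suff, 1618 in Arg-, 1116 in Leu- and 1707 in Met- with CHX. RPL26 had an RPKM of 1347 in Suff, 870.3 in Arg-, 552 in Leu- and 755 in Met- without CHX, and 965 in Suff, 1101 in Arg- and 618 in Leu-, with no value in Met- with CHX. Both had the lowest listed value in Leu-, and the transcript standing for RPL26 changed within the series with CHX. RPL31 had an RPKM of 4615 in Suff, 4289 in Arg-, 1906 in Leu- and 2874 in Met- without CHX, and 2979.9 in Suff, 1395 in Arg-, 683 in Leu- and 575 in Met- with CHX. RPL35 had an RPKM of 5341 in Suff, 4768 in Arg-, 2697 in Leu- and 3942 in Met- without CHX, and 2299 in Suff, 1950.2 in Arg-, 954 in Leu- and 3032 in Met- with CHX. RPL31, whose transcript also changed within the series with CHX, was highest in Suff in both series, and RPL35 was highest in Suff without CHX and in Met- with CHX.

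RPL24, RPL30 and RPL41 reach across to the small subunit as parts of intersubunit bridges. RPL24 had an RPKM of 4851 in Suff, 4203 in Arg-, 3354 in Leu- and 1892 in Met- without CHX, and 3353 in Suff, 2710.0 in Arg-, 1555 in Leu- and 702 in Met- with CHX. RPL30 had an RPKM of 2593 in Suff, 2629.7 in Arg-, 2023 in Leu- and 2297 in Met- without CHX, and 325 in Suff, 83.9 in Arg- and 62.6 in Leu-, with no value in Met- with CHX, the latter on 240 reads in Suff, 121 in Arg- and 116 in Leu- and on another transcript. RPL41, the shortest protein of the ribosome with 25 residues, had an RPKM of 30096 in Suff, 15166 in Arg-, 13733 in Leu- and 94013 in Met- with CHX. These values rest on 5779 reads in Suff, 5699 in Arg-, 6627 in Leu- and 3795 in Met-. RPL24 was lowest in Met- in both series, RPL30 was lower in Leu- than in Arg- in both, and RPL41 was 3.12-fold above Suff in Met- and 0.504 and 0.456 of Suff in Arg- and Leu-.

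Several members with no role listed above stood at an end of a comparison. RPL37A, a zinc-binding protein, had an RPKM of 8284 in Suff, 5349.5 in Arg-, 3371 in Leu- and 6943 in Met- without CHX, and 28295 in Suff, 12804 in Arg-, 6098 in Leu- and 4679 in Met- with CHX. RPL38, a protein of 70 residues, had an RPKM of 6367 in Suff, 3229.6 in Arg-, 3077 in Leu- and 4412 in Met- without CHX, and 10451 in Suff, 4233 in Arg-, 4687 in Leu- and 3654 in Met- with CHX. RPL37A was lowest in Leu- without CHX and in Met- with CHX, and RPL38 was highest in Suff in both series. RPL13 had an RPKM of 3638 in Suff, 4927 in Arg-, 2153 in Leu- and 3914 in Met- without CHX, and 3729 in Suff, 1339 in Arg-, 1083 in Leu- and 2266 in Met- with CHX. RPL28 had an RPKM of 1389 in Suff, 1979 in Arg-, 739.7 in Leu- and 760.3 in Met- without CHX, and 6669 in Suff, 2721 in Arg-, 2495 in Leu- and 1899 in Met- with CHX. RPL32 had an RPKM of 3205 in Suff, 4459 in Arg-, 1787 in Leu- and 3122 in Met- without CHX, and 6034 in Suff, 4239.7 in Arg-, 4331 in Leu- and 436 in Met- with CHX. These 3 were highest in Arg- without CHX and highest in Suff with CHX, on different transcripts in the 2 series. RPL37, on the same transcript throughout, had an RPKM of 4537 in Suff, 5790.3 in Arg-, 1922 in Leu- and 3669 in Met- without CHX, and 10527 in Suff, 8682 in Arg-, 4045 in Leu- and 4776 in Met- with CHX. Among the remaining 15 members listed without CHX, log2 ratios to Suff ran from -0.62 (RPL14) to 0.19 (RPL13A) in Arg-, from -1.22 (RPL34) to -0.55 (RPL23) in Leu- and from -1.39 (RPL14) to -0.25 (RPL27A) in Met-.

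Over the 41 members listed without CHX, the highest of the 4 libraries was Suff for 31 (20.0% of all mRNAs listed in these libraries), Arg- for 8 (13.1%), Met- for 2 (45.6%) and Leu- for none (21.3%). The lowest was Leu- for 28 (11.9% of all mRNAs), Met- for 12 (18.0%), Arg- for 1 (32.6%) and Suff for none (37.5%). The 8 highest in Arg- were RPL3, RPL8, RPL13, RPL13A, RPL28, RPL30, RPL32 and RPL37. Compared directly, Leu- was below Arg- for 39 of 41 members (36.4% of all mRNAs), with a median log2 ratio of -0.63 against 0.15 for all mRNAs. Of the 41, 22 were at least 1.5-fold lower (5.79% of all mRNAs), while RPLP1 was the 1 member at least 1.5-fold higher (16.2% of all mRNAs). The lowest of that comparison were RPL37 (-1.59), RPL39 (-1.45) and RPL28 (-1.42). Met- was below Arg- for 33 of 41 members (31.9% of all mRNAs), for 13 of them at least 1.5-fold (9.44% of all mRNAs), and RPL22 was the 1 member at least 1.5-fold higher (33.2% of all mRNAs). Between Met- and Leu- the median was 0.21 against 0.15 for all mRNAs. Here 12 of 41 members were lower in Met- (40.5% of all mRNAs), 4 of them at least 1.5-fold (13.3% of all mRNAs), and 11 members were at least 1.5-fold higher in Met- (25.2% of all mRNAs).

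With CHX, Leu- was below Arg- for 33 of 40 members (40.7% of all mRNAs), with a median of -0.53 against 0.13, and for 18 at least 1.5-fold (13.1% of all mRNAs). RPLP1 and RPL15 (1.02) were the 2 members at least 1.5-fold higher in Leu- (20.1% of all mRNAs). Met- was below Arg- for 19 of 31 members (24.0% of all mRNAs), with 16 at least 1.5-fold lower (12.2% of all mRNAs) and 6 higher (63.3% of all mRNAs). Met- was below Leu- for 16 of 31 members (24.3% of all mRNAs), with a median of -0.07 against 0.84, and 10 members were at least 1.5-fold lower (12.4% of all mRNAs) and 10 higher (59.0% of all mRNAs). Both comparisons with Met- hold only mRNAs listed in that shallow library, so the values for all mRNAs lean toward Met-. Among members with at least 100 reads in both libraries, RPL4 (-1.73) and RPL5 (-1.61) stood lowest in Met- against Leu- and RPL41 (2.78) highest, while RPL32 stood at -3.31 on 95 reads.

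The coded proteins are short and basic. Their median coding length was 487.5 nt against 1434 nt for all mRNAs, and arginine made up a median of 9.58% of residues against 5.63%, and lysine 13.7% against 5.74%. Leucine was at 7.04% against 9.75%, and methionine at 2.50% against 2.13%. RPLP1 holds 0 arginines in 114 residues and RPLP2 2 in 115. Across the 41 members without CHX, the Arg- ratio was higher where the protein held more arginine (Spearman rho 0.44). Without RPLP0, RPLP1 and RPLP2 it was 0.39 over 38 members, over all mRNAs 0.03, and with CHX 0.06 over 40 members. These points come from the same pair of libraries and share their depth, so rho is given as a description. The leucine share had rho 0.25 without CHX and 0.21 with CHX with the Leu- ratio, and the methionine share 0.02 and -0.21 with the Met- ratio. Shares of amino acids that were not missing reached like sizes among members without CHX. With the Arg- ratio, methionine had rho 0.32 and leucine 0.07. With the Leu- ratio, arginine had -0.33 and methionine -0.04, and with the Met- ratio, arginine had 0.02 and leucine -0.01.

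**Figure D4:**
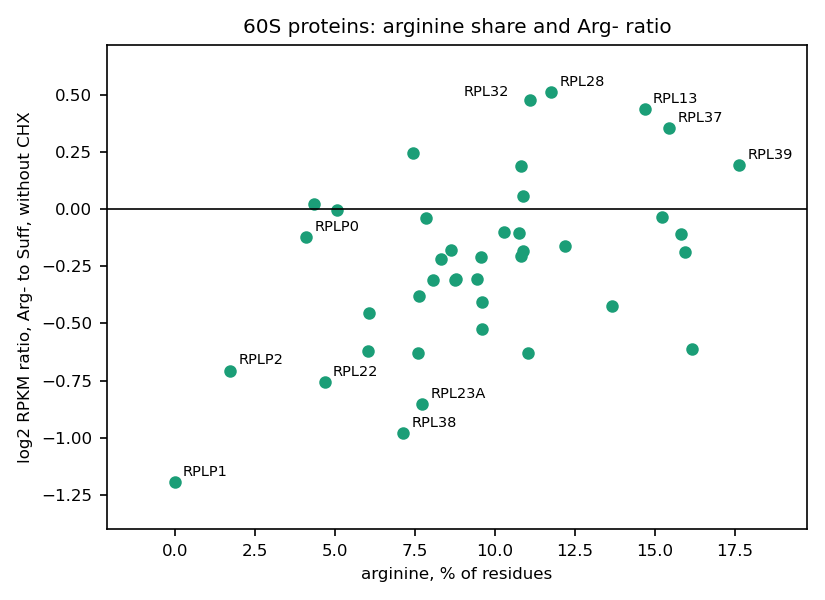
Log2 ratio of RPKM in Arg- to Suff without CHX (vertical axis) against the percentage of arginine residues (horizontal axis) for the 41 listed 60S proteins, 1 point per gene, 1 library per condition, no error bars. RPLP1 with 0 arginines is lowest at -1.19, and the spread among proteins of similar arginine share is wide.

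Coding length went with the ratios over all mRNAs, and among members in some comparisons. Over all mRNAs, Spearman rho between coding length and the ratio was 0.36 in Arg-, 0.31 in Leu- and 0.44 in Met- without CHX, and 0.47, 0.42 and 0.54 with CHX. Among members it was 0.14 in Arg-, 0.48 in Leu- and -0.26 in Met- without CHX, and 0.49, 0.44 and 0.13 with CHX. Without RPLP0, RPLP1 and RPLP2 the value of 0.14 in Arg- was 0.0353. Other mRNAs with coding lengths from 387 to 645 nt, the interquartile range of the members compared without CHX, had a median log2 ratio of -0.32 in Arg-, -0.07 in Leu- and -0.16 in Met-. The 21 members in that range were at -0.21, -0.89 and -0.70. With CHX, other mRNAs in the members' interquartile range of length were at -0.77 in Arg-, -0.40 in Leu- and -0.14 in Met-, and the members in it at -0.70, -1.31 and -1.81. The difference between the members and the other mRNAs of like length, without and with CHX, was 0.11 and 0.07 in Arg-, -0.81 and -0.90 in Leu-, and -0.54 and -1.67 in Met-. In Met- with CHX both sides hold only mRNAs listed in that shallow library, which tends to leave out mRNAs low in Met-. The part of length in these ratios was not tested.

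The pyrimidine start went with the ratios in some comparisons. In Leu- with CHX, the 25 members with a C and at least 4 further pyrimidines at the start had a median log2 ratio of -1.27, against -0.48 for the 9 members without them, RPL3 included. Without CHX the medians of the same numbers of members were -0.99 and -0.79. In Arg- they were -1.01 over 24 members and -0.49 over 9 with CHX, and -0.31 and -0.21 over 25 and 9 without CHX. In Met- with CHX, where fewer members were listed, the order was turned, at -1.06 over 18 members with this start and -1.59 over 8 without it. Not listed there were RPL12, RPL14, RPL18, RPL21, RPL26, RPL34 and RPL39 with this start, and RPL15 without it. Apart from RPL18, their limits given above were at most 0.279 of Suff, so the turned order holds for listed members only. In Met- without CHX the medians were -0.68 over 25 members and -0.70 over 9. The ranges overlapped in all 6 comparisons. Coding length, which had rho 0.44 with the member ratios in Leu- with CHX, was not matched between the groups. The groups rest on annotated starts, and the starts used in these cells were not measured, so they need not separate TOP from other mRNAs.

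A further 5 lists show where the members stand among related genes. The 40S proteins, the partners of the 60S proteins in the ribosome, were at -0.31 in Arg-, -1.02 in Leu- and -0.42 in Met- without CHX, and at -0.71, -1.37 and -1.44 with CHX, in each case below the median of all mRNAs. Of the 30 40S mRNAs compared without CHX, 28 were at least 1.5-fold lower in Leu-, against 7.79% of all mRNAs. So were 3 of 14 other TOP mRNAs, 3 of 30 assembly factors and 12 of 47 mitochondrial proteins. A list of 14 other TOP mRNAs, chiefly elongation factors and other translation genes, was at 0.08, -0.21 and -0.37 without CHX but at 1.24, 0.69 and 1.01 with CHX. The 60S assembly factors and chaperones were at -0.23, -0.10 and 0.00 without CHX, and at 0.53, 0.50 and 1.44 with CHX. The mitochondrial large subunit proteins were at -0.31, -0.35 and -0.08 without CHX, and at -0.76, -0.43 and -0.14 with CHX. For every list, the Met- median with CHX covers only genes listed in that shallow library. In Leu- and Met-, the cytosolic 60S median was below those of the assembly factors, the mitochondrial proteins and the other TOP mRNAs in both series, and in Arg- the mitochondrial proteins stood lower than the cytosolic 60S proteins in both. Paralogs and fusions of 60S proteins, 6 of 8 compared, had median log2 ratios of -0.24 in Arg-, -0.34 in Leu- and -0.59 in Met- without CHX. With CHX 5 of them could be compared in Arg- (median -0.36) and Leu- (-0.84), and 1 in Met- (-2.30).

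**Figure D5:**
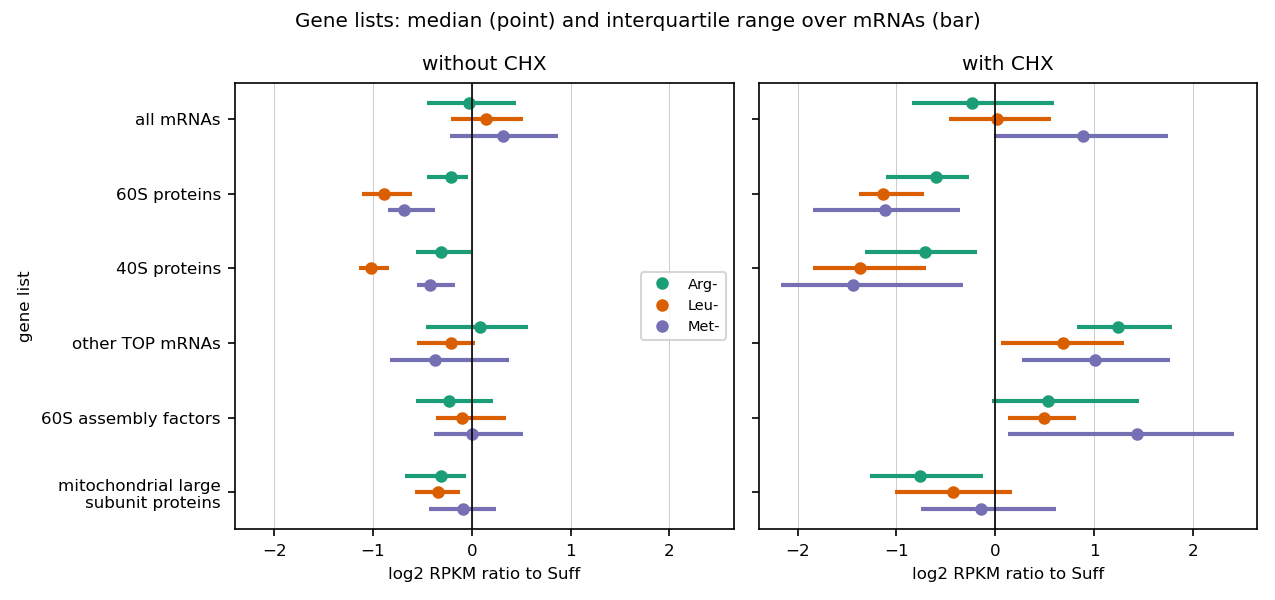
Median log2 RPKM ratio to Suff (point, horizontal axis) and interquartile range over mRNAs (bar) of 6 gene lists (vertical axis) in Arg-, Leu- and Met-, without CHX (left) and with CHX (right), 1 library per condition. The 60S and 40S medians lie below 0 in all 6 comparisons, while the other TOP mRNAs lie above 0 with CHX.

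The transcript that stood for a gene was the same in all 8 libraries for 19 members. In 18 members it differed between libraries, and for RPL9, RPL26, RPL29 and RPL31 it changed within the series with CHX. For RPL9, RPL26 and RPL29 some libraries with CHX shared the transcript used without CHX. For the other members of the 18 it differed only between the series. No member changed transcript within the series without CHX, where a gene nearly always had 1 listed transcript. With CHX, 18 members had several transcripts listed in a library. RPL35 is an example: with CHX its highest value, 2299 RPKM in Suff, belongs to a transcript annotated for nonsense-mediated decay, and the sum over its transcripts was 2937 RPKM. Where footprints are shared by transcripts of a gene or by near-identical copies elsewhere, reads kept only when uniquely mapped leave them out, so levels across members and across the series are less certain than ratios within a series.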

How the data were processed

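Ribosome-protected fragments of HEK293T cells were sequenced in 8 libraries, 1 per condition. The authors trimmed adaptors, kept footprints within a length range, trimmed low-quality ends with Trimmomatic, used Bowtie to align exact matches to human transcripts (GRCh38) and kept reads that mapped once. The labels also list cutadapt. Tool versions and the annotation release are not given in the sources used here. The deposited tables give 1 RPKM value for each Ensembl transcript, and only transcripts above a minimum number of reads are listed. File names of the series without CHX point to removal of duplicate reads, which the methods do not mention.

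Transcripts were matched to GENCODE release 44 on the same build (96.7% to 97.1% found in each library), and unmatched transcripts were kept under their identifiers. Ratios were log2((RPKM + 1)/(RPKM in Suff + 1)), on which scale low mRNAs are understated, for mRNAs listed in both libraries with a mean RPKM of at least 10. An unlisted mRNA was left out rather than taken as 0. Read counts were recovered from whole steps of RPKM times coding length, accepting a deviation of at most 0.01 step, and 97.2% to 97.4% of matched transcripts lay on a step. Coding length included the stop codon in the series without CHX only. RPL11 needed a coding length 3 nt longer than annotated. The recovered reads gave exact (Clopper-Pearson) 95% intervals of single ratios, which cover counting error only. With 1 library per condition no test was made. The scripts were tested on simulated data.

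The members, roles and gene lists were chosen with earlier results of these data known. Genes named are the members with a structural role listed, the 3 highest and 3 lowest members of each comparison with at least 100 reads in both libraries, members missing from a library, and members whose transcript differed. RPL32 in Met- with CHX, under 100 reads, and members given as the end of a range or for opposite directions in the 2 series were named after their values were seen. Alternatives were the pseudocount, the RPKM minimum, unlisted mRNAs as 0, summed transcripts, 1 transcript per gene within a series, centring, means, recovered reads, and members left out. Leaving out the stalk proteins or RPL41, the background of mRNAs of like coding length and the requirement of counting intervals clear of 1 in the members with opposite directions were added after seeing the data. That last requirement replaced a 1.5-fold minimum in both series, which no member met. RefSeq (GRCh38.p14) gave the start-site windows. Computation used scipy 1.17.1, pandas 2.3.3 and numpy 2.4.6 under Python 3.11.15, with plots from matplotlib 3.10.9.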

Additional observations from a re-analysis of the deposited data

Results flagged for a closer look

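In 15 cases a member lay above Suff in one series and below it in the other for the same missing amino acid, with both 95% counting intervals clear of a ratio of 1. There were 9 such cases of 39 members in Arg- (8.44% of all mRNAs compared in both series), 2 of 40 in Leu- (5.19%) and 4 of 30 in Met- (11.9%). Counting intervals are narrower where reads are many, and members are among the densest mRNAs. They meet this criterion at smaller differences than most mRNAs, and the shares of all mRNAs are not matched for reads. The difference between the series was not tested, with 1 library on each side. Their processing also differed, in the read minimum and, by file names, in removal of duplicate reads, which cannot be told apart from CHX here. This criterion was set after seeing the data: members were first sought that lay at least 1.5-fold apart from Suff in opposite directions, and there were none. Whatever the size, 8 of 39 members in Arg- lay below Suff with CHX and above it without (13.0% of all mRNAs), and 5 the other way (15.9%). In Leu- 2 of 40 members lay above Suff with CHX and below it without (14.4%). In Met- 2 of 30 members lay below Suff with CHX and above it without (4.28%), and 3 the other way (25.2%). The Met- shares of all mRNAs cover only those listed in the shallow Met- library with CHX.

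Below Suff with CHX and above it without CHX in Arg- were 7 members. The log2 ratio of RPL13 was -1.48 with CHX and 0.44 without it. RPL28 stood at -1.29 with CHX and 0.51 without it, and RPL32 at -0.51 and 0.48. These 3 members were read on different transcripts in the 2 series. RPL39 stood at -0.60 with CHX and 0.19 without it, RPL13A at -0.53 and 0.19, RPL8 at -0.45 and 0.0562, and RPL37 at -0.28 and 0.35, each on the same transcript.

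The opposite order in Arg- was found for RPL5, at 1.09 with CHX and -0.31 without it, and for RPL4, at 0.37 and -0.52, both on the same transcript in the 2 series. In Leu- RPL4 stood at 0.43 with CHX and -0.55 without it, and RPL15, on different transcripts, at 0.42 and -0.88. In Met- RPLP0 stood at 0.44 with CHX and -0.85 without it, and RPL35, on different transcripts, at 0.40 and -0.44. RPL13 in Met- stood at -0.72 with CHX and 0.11 without it, and RPL22 at -0.67 and 0.13.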

How the results depend on the processing

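Every median log2 ratio of the members in the 6 comparisons with Suff kept its sign under each alternative run. Of 60 recomputed medians 58 stayed within the 95% interval of the median over members. That interval describes the spread over members of 1 pair of libraries and is no replicate error. Without CHX several alternatives could not move the medians or counts, because every member lay above the minima and none changed transcript. Within that interval, Met- with CHX went from -1.11 to -1.78 with the 10 unlisted members counted as 0. Arg- with CHX went from -0.60 to -0.37 after centring on the median of all mRNAs. Centring took Met- from -0.68 to -0.999 without CHX and from -1.11 to -2.003 with CHX. With CHX the centre is the median of mRNAs listed in the shallow Met- library, which leans upward. All 54 recomputed counts of members at least 1.5-fold lower stayed within 1.5 times the reported count. The count at least 1.5-fold higher in Arg- with CHX, 1 as reported, was 3 after centring and 2 with 1 transcript per gene within the series.

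The share of footprints on members, starved over Suff, depended on the unit. In recovered reads in place of RPKM it was 0.876 in Arg-, 0.571 in Leu- and 0.650 in Met- without CHX, and 0.645, 0.468 and 0.505 with CHX. Over the members listed in all 8 libraries it was 0.612 in Leu- without CHX, and 0.686 in Arg-, 0.488 in Leu- and 0.726 in Met- with CHX. Without RPL41, chosen after seeing the data, it was 0.694 in Arg-, 0.498 in Leu- and 0.654 in Met- with CHX. In Met- with CHX the reported ratio of 1.36 in summed RPKM was 1.33 with summed transcripts. Without RPL41 it was 0.654, so this direction rested on RPL41. In recovered reads, RPL41 included, it was 0.505.

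Without RPLP0, RPLP1 and RPLP2, chosen after seeing the data, rho near 0 turned sign in 4 relations. It went from 0.02 to -0.0574 for arginine and from -0.01 to 0.0341 for leucine in Met- without CHX, and from 0.06 to -0.0254 for arginine and from 0.00 to -0.0826 for methionine in Arg- with CHX.

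No fit that pairs the libraries across the series was made. It would take the series with and without CHX, which the labels give as different conditions, as replicates of a medium, so each series is given on its own. The Met- library with CHX, with 538222 reads, limits what can be said of the 10 members it does not list.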
